A study of Mus musculus with 6 samples.

Results

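The genes described here encode the Eph receptors and their ephrin ligands, the Slit ligands with their Robo receptors and the srGAP proteins downstream of Robo, and the netrins and RGM proteins with their receptor neogenin. They were picked by name, with patterns for these families, and 32 of the 13962 genes in the count table matched. Earlier results of these data were known when the families were chosen. Where a name stood on 2 rows, which was so for Efna5, the row holding more reads was taken. GENCODE M21 holds 42 genes under the same patterns. The other 10, among them Dcc, Robo3 and Robo4, had no row under those names in the count table and were not analysed here.

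All 6 libraries came from C57BL/6 mouse preadipocytes of inguinal white fat that carried 2 floxed Tle3 alleles and the tamoxifen-inducible recombinase CreERT2 and had been immortalized with the large T antigen. TLE3, a Groucho-type protein, represses transcription together with DNA-binding partners, and the question was what its loss does to the transcriptome of beige adipocytes, the heat-producing fat cells of white depots, once they have differentiated. Insulin (20 nM) and T3 (1 nM) were present throughout, the inducing medium added isobutylmethylxanthine (0.5 mM), dexamethasone (0.5 uM), indomethacin (0.125 mM) and rosiglitazone (1 uM), and rosiglitazone was kept afterwards. On day 4 the controls (n = 3) received ethanol and the other group (n = 3) received 4-hydroxytamoxifen at 500 nM for 24 hours to activate Cre, and poly(A) RNA was collected on day 10. Both groups carried floxed Tle3 and CreERT2, and no cells without Cre were given the compound, so effects of the compound, of Cre activity and of the deletion cannot be told apart. The labels do not say whether the libraries of a group were separate cultures or whether the line was a clone, so p-values here reflect differences among these 6 libraries that could be technical.

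Total counts per library ran from 14606228 to 19294632. Tle3 itself was higher in the libraries labelled knockout (287 to 294 CPM, read counts scaled to a common library size) than in controls (151 to 152 CPM). Counts over the whole gene also take in exons outside a floxed stretch and so do not check the labels, and every direction below is that of the libraries labelled knockout relative to the controls. The adipocyte label was borne out by Adipoq (521 to 615 CPM in controls, 626 to 737 CPM in the other group), Fabp4 and Plin1, and Ucp1 stood at 61.6 to 77.6 CPM and 94.3 to 108 CPM. Fibroblast and preadipocyte genes were abundant too, with Pdgfra at 215 to 269 CPM and 167 to 198 CPM. Of 7 endothelial markers 4 had a row, at a summed 2.3 to 3.8 CPM in controls and 3.5 to 4.3 CPM in the other group, and 3 of 8 Schwann and neural markers had a row, at 14.6 to 16.4 CPM over all libraries. The 3 of 6 macrophage and leukocyte markers with a row summed to 3.7 to 5.4 CPM, and the 6 mural and smooth muscle markers to 1240 to 1463 CPM, most of it Acta2 (log2 −0.01, not called). Of the other mural markers Des (log2 0.64, adjusted p 0.00131), Cspg4 (0.565, adjusted p 0.0276) and Notch3 (0.30, adjusted p 0.0234) rose. Myh11 (log2 0.13) and Rgs5 (log2 −0.15, at 1.24 to 1.8 CPM over all libraries) were not called.

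Eph receptors are receptor tyrosine kinases that bind ephrins on neighbouring cells and signal in both directions, so that contact can repel cells or hold them together. Slits are large secreted proteins that act through Robo receptors and, inside the cell, srGAP proteins that bind those receptors. Netrins and RGM proteins both bind neogenin, and RGM proteins are also co-receptors for bone morphogenetic proteins. These cues are best known from axon guidance, and in fat they are known for work in vessel and nerve patterning and, for Slit2, for a cleaved fragment released by beige cells that raises thermogenic gene expression.

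Upstream sequence was looked at for the genes that changed. The 250 bases before the transcription start are shown for Epha3, Neo1 and Efnb1, whose calls held under every alternative run, and for Ntng2, whose window holds the fewest CG dinucleotides among those of the changed genes. The sequences are RefSeq's for GRCm38.p6, 5′ to 3′ on the gene's own strand, with CG dinucleotides in capitals: Epha3 at chr16:63864176-63864425 (minus strand), Neo1 at chr9:59036442-59036691 (minus), Efnb1 at chrX:99135811-99136060 (plus, at a RefSeq start that was not found at the opening of a GENCODE M21 transcript of the gene) and Ntng2 at chr2:29248100-29248349 (minus).
Epha3: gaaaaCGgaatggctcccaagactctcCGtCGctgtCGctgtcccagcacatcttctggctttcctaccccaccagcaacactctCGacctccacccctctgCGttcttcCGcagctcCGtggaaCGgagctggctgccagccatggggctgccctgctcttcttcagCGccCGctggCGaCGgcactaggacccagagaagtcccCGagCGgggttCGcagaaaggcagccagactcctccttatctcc
Neo1: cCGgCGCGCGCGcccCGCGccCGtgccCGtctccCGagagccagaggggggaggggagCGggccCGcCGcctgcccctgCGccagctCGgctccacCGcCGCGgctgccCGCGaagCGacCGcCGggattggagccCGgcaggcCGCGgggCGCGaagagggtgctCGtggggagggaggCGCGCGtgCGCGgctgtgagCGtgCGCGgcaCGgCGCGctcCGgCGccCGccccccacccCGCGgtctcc
Efnb1: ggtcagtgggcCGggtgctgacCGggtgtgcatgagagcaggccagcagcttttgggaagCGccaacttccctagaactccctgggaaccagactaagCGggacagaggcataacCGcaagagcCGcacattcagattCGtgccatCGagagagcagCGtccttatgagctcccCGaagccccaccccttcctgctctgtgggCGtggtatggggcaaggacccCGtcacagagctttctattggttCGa
Ntng2: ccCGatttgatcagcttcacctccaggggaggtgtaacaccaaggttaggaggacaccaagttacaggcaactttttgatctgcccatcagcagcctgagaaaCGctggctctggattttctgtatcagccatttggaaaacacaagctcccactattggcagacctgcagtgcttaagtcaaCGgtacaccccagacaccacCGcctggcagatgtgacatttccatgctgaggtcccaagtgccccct
The window of Neo1 holds 45 CG dinucleotides and is 83.2% G and C, that of Epha3 holds 16, that of Efnb1 13 and that of Ntng2 4. The median over 32841 RefSeq windows of this length was 6, and over the 35 windows found for 28 of the 32 guidance genes it was 16. G and C content was above the median of all windows (52.4%) in 32 of those 35. All windows together belong to 27018 genes, among them genes without a row in the count table. The guidance genes were thus not set against detected genes alone, and the motif shares below use the same background.

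The same windows were searched on both strands for short motifs of factors that recruit Groucho proteins or act in beige cells. These were CTTTGA for TCF/LEF factors, TGTGGT for RUNX factors, CACGTG for HES-type factors and CCCNNGGG for EBF factors, and no match of one overlapped a match of another in these genes. Among all windows, 13.8%, 14.0%, 6.02% and 11.8% held them in that order. Among the 35 windows of guidance genes, 1, 2, 1 and 7 did. In the 6 windows of the 5 changed genes there was no match to any of the 4 motifs, which says only that these letters are not in this stretch.

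No change was called for most guidance genes in the libraries labelled knockout, which does not show that they stayed the same. Of the 32, 31 passed the filter on low counts, and Robo2, at 5 to 17 counts per library, did not. A gene was said to rise or fall when its edgeR p-value, adjusted over all 13192 tested genes, was under 0.05. By that rule Efnb1 rose (3.23% of 31; over all tested genes 6.91% rose), and Epha3, Epha7, Neo1 and Ntng2 fell (12.9%; over all genes 5.44% fell). The 5 that changed are 16.1% of the tested guidance genes, against 12.3% of all tested genes, a share near the background. The median log2 fold change was −0.10 over guidance genes and −0.00 over all tested genes, and 21 guidance genes had a value below 0. Every library labelled knockout was below every control for 7 guidance genes (22.6%, against 15.8% of all tested genes) and above every control for 3 (9.68%, against 16.0%).

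**Figure D1:**
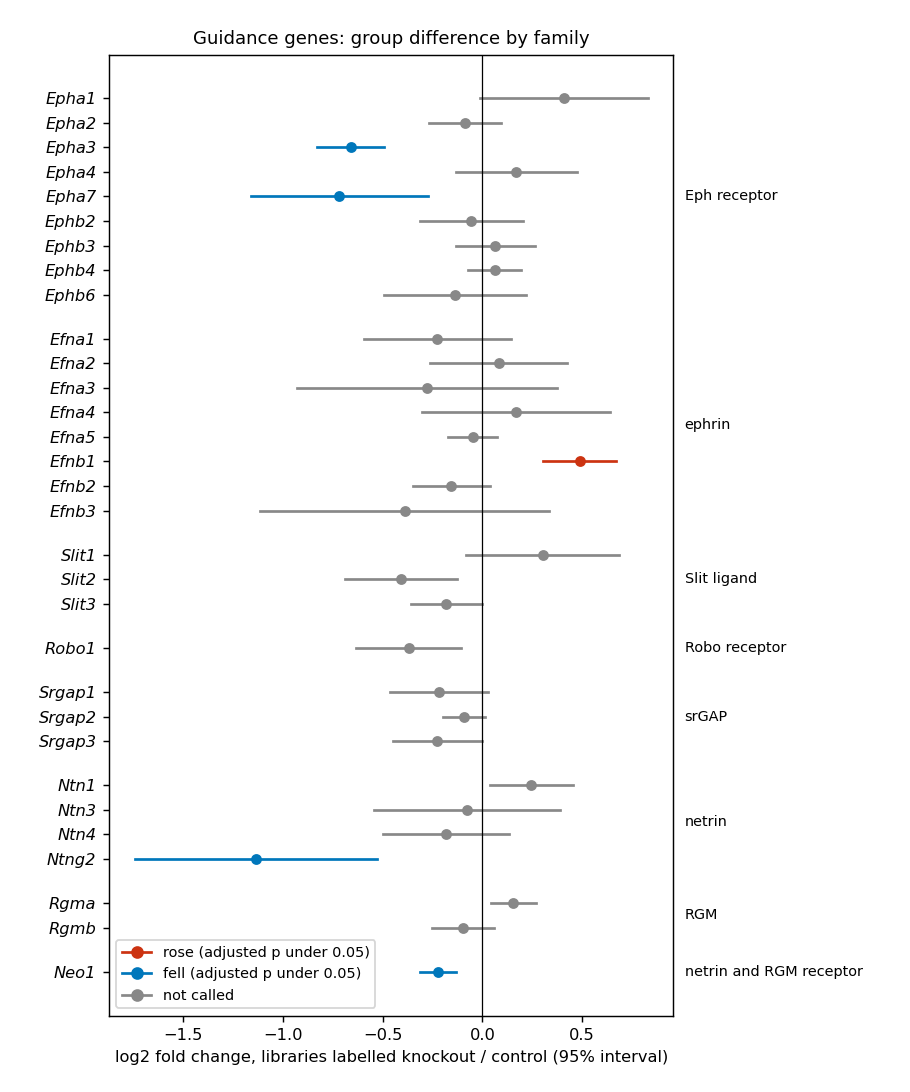
Log2 fold change of the 31 tested guidance genes (x axis, libraries labelled knockout over controls, n = 3 each) with 95% intervals, grouped by family on the y axis. Of the called genes, Epha3, Epha7, Neo1 and Ntng2 lie to the left and Efnb1 to the right, with intervals that exclude 0. The intervals of Slit2, Slit3, Robo1, Srgap3, Ntn1 and Rgma exclude 0 too, though these were not called after adjustment. Wide intervals belong to genes with few counts.

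Among the Eph receptors, the 2 that fell were EphA receptors, and the other abundant ones overlapped between the groups. Epha3, a receptor that binds ephrin-A5 with high affinity, stood at 37.3, 34.4 and 37.0 CPM in controls 1 to 3 and at 25.2, 20.6 and 23.0 CPM in the libraries labelled knockout 1 to 3. The lowest control was well above the highest of the other group. Mean CPM was 36.2 ± 1.62 against 22.9 ± 2.30 (SD, n = 3 each), and the log2 fold change was −0.66 with SE 0.076 and a 95% interval of −0.83 to −0.49 (adjusted p 0.00053 with edgeR). The exact permutation p (two-sided, on CPM) was 0.1, which 3 libraries against 3 cannot go below. Without any 1 library the value stayed between −0.73 and −0.59.

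Epha7, a further EphA receptor, fell by 0.72 on the log2 scale from low levels (SE 0.201, adjusted p 0.0407). Its CPM was 2.54, 3.05 and 2.81 in controls and 2.12, 1.45 and 1.47 in the libraries labelled knockout, which are 45, 45 and 55 counts against 34, 21 and 22. The groups did not overlap, but the call rests on few reads. DESeq2 did not call it (adjusted p 0.128), nor did edgeR with the replicate number as a block (0.0511). The call also went without control 1, 2 or 3 and without knockout 2 or 3 (0.0732 to 0.163).

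Epha2, Ephb3 and Ephb4 were as abundant as Epha3 in controls. Epha2 was at 35.0, 31.4 and 40.0 CPM in controls and 34.8, 32.6 and 33.1 CPM in the other group, with overlapping groups and a 95% interval of −0.27 to 0.09 for its log2 fold change. Ephb3, a receptor of the B class, was at 33.2, 30.8 and 37.2 CPM and then 34.6, 31.7 and 39.9 CPM (interval −0.13 to 0.27). Ephb4, the receptor that pairs with ephrin-B2 in vessels, was at 35.0, 33.8 and 37.4 CPM and then 38.5, 37.5 and 35.0 CPM (interval −0.07 to 0.20). For these 3 receptors a change as large as that of Epha3 lies outside the interval, and the exons of Ephb4 overlap those of Zan on the opposite strand. Ephb2 and Epha4 were at means of 8.80 and 6.36 CPM, and the kinase-dead Ephb6 at 2.54 CPM, with adjusted p from 0.466 to 0.808. Epha1 was at 1.35 to 1.58 CPM in controls and 1.93 to 1.94 CPM in the other group without overlap (adjusted p 0.22), and its exons overlap those of Zyx on the opposite strand, so its reads are uncertain.

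Among the ephrins, 1 ligand of the transmembrane B class rose. Efnb1 was at 10.4, 10.9 and 10.1 CPM in controls and 15.3, 14.2 and 14.3 CPM in the libraries labelled knockout. All 3 values of the second group were above all controls. Mean CPM was 10.4 ± 0.425 against 14.6 ± 0.591 (SD, n = 3 each), and the log2 fold change was 0.49 with SE 0.0836 and a 95% interval of 0.30 to 0.67 (adjusted p 0.00462 with edgeR). The exact permutation p on CPM was 0.1, and the adjusted p over all alternatives was 0.0042 to 0.0246.

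Efnb2, the other abundant ephrin-B, was at 28.0, 29.1 and 32.1 CPM in controls and 26.3, 30.1 and 23.8 CPM in the other group. The groups overlapped (log2 −0.16, 95% interval −0.35 to 0.04). Both genes are ligands of the EphB receptors, whose levels are given above.

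The ephrin-A ligands, which are held to the membrane by a lipid anchor, had adjusted p from 0.419 to 0.786. Efna5 was the most abundant of them, at 35.9, 36.6 and 38.1 CPM in controls and 35.2, 34.4 and 37.4 CPM in the other group (log2 −0.05, 95% interval −0.17 to 0.07). On this row its groups overlapped. A second row named Efna5, under an ID that is not in GENCODE M21, held fewer reads, at 23.4 to 24.3 CPM in controls and 21.4 to 22.9 CPM in the other group without overlap (log2 −0.11, adjusted p 0.288). How reads were divided between the 2 rows is not given in the sources used here. Efna1, Efna2, Efna3 and Efna4 and the ephrin-B gene Efnb3 had means of 0.93 to 3.17 CPM. Exons of Efna3 and Efna4 overlap other genes on the opposite strand (Gm15998 and 4731419I09Rik). The widest interval among the ephrins was that of Efnb3 (−1.12 to 0.34), which had 9 to 28 counts per library.

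**Figure D2:**
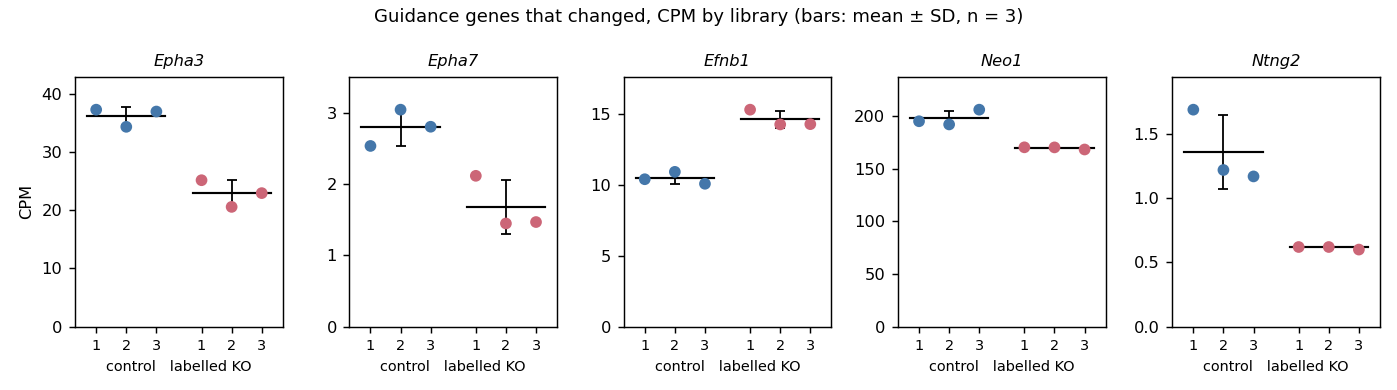
CPM in each library (points; x axis, controls 1 to 3 and libraries labelled knockout 1 to 3; y axis from 0) for the 5 guidance genes that changed, with mean ± SD per group. In each panel the groups do not overlap; Epha7 and Ntng2 are at about 3 CPM or less.

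Slit2 was the most abundant guidance gene by reads, with 22.2% to 30.8% of all reads of the 32 genes in each library. It encodes the secreted ligand whose cleaved fragment acts on fat cells. It was at 298, 282 and 403 CPM in controls 1 to 3 and at 287, 219 and 235 CPM in the libraries labelled knockout 1 to 3. Control 3 was far above every other library, and knockout 1 lay between controls 1 and 2. Mean CPM was 328 ± 65.9 against 247 ± 35.5 (SD, n = 3 each), and the log2 difference of −0.41 (95% interval −0.69 to −0.13) missed the threshold with an adjusted p of 0.0596. Without control 3 the log2 difference was −0.23 (adjusted p 0.152). It passed the threshold without control 2 (0.0231) or knockout 1 (0.0269) and with the replicate number as a block (0.0205).

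Slit3, a second secreted ligand of the family, was at 111, 103 and 128 CPM in controls and 109, 91.6 and 102 CPM in the other group. Its groups overlapped (log2 −0.18, adjusted p 0.175), and the value was −0.09 without control 3. Slit1 was low, at 3.16 to 4.54 CPM and 4.15 to 5.67 CPM (adjusted p 0.29).

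Robo1, the main receptor gene found, was at 13.0, 11.8 and 15.2 CPM in controls and 11.8, 9.40 and 9.84 CPM in the other group. The highest library labelled knockout lay just below the lowest control, and the test did not pass (log2 −0.37, SE 0.119, adjusted p 0.0661). It passed without control 2 (0.0345), without knockout 1 (0.0394) and with the replicate block (0.0483), and without control 3 the value was −0.26 (0.226). Robo2 had 12, 17 and 12 counts in controls and 8, 5 and 8 counts in the other group, which was too few to be tested.

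The srGAP genes, whose products bind the inner part of Robo, had log2 fold changes of −0.22 to −0.09 and were not called. Srgap2 was at 57.5, 58.8 and 61.0 CPM in controls and 56.6, 53.2 and 56.3 CPM in the other group (log2 −0.09, adjusted p 0.231). The groups of Srgap2 did not overlap, but they lay within a few CPM of each other. Srgap3 was at 47.6, 39.7 and 55.5 CPM and then 43.8, 38.7 and 40.3 CPM, with overlap and an adjusted p of 0.175, and its exons overlap Gm44081 on the opposite strand. It passed the threshold without control 2 (log2 −0.33, adjusted p 0.0164), and the value was −0.10 without control 3. Srgap1 was at 7.61 to 9.19 CPM and 6.84 to 7.61 CPM (adjusted p 0.232), and its exons overlap those of Gm48804 on the same strand.

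**Figure D3:**
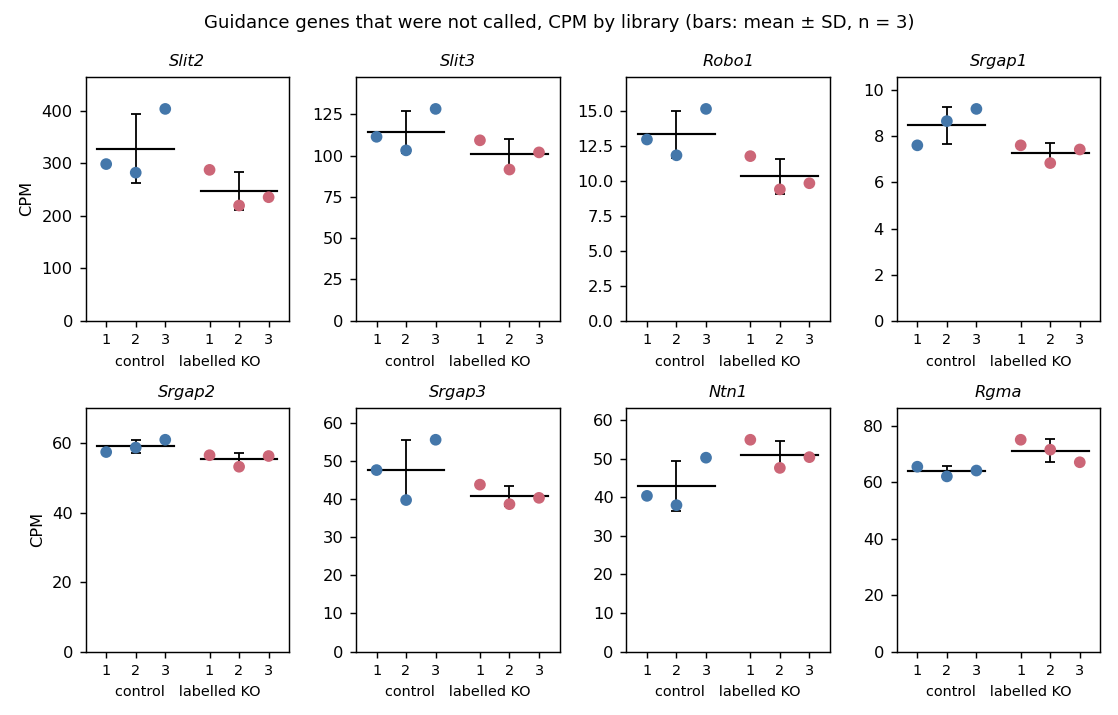
CPM in each library (points; y axes from 0) for 8 guidance genes that were not called, with mean ± SD per group. Control 3 is the highest control for Slit2, Slit3, Robo1, Srgap1, Srgap2, Srgap3 and Ntn1, and Ntn1 and Rgma have higher means in the libraries labelled knockout.

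Neo1, which encodes the netrin and RGM receptor neogenin, fell by a small and even amount. It was at 195, 192 and 206 CPM in controls and 170.4, 170.3 and 168 CPM in the libraries labelled knockout. All libraries of the second group lay within about 2 CPM of each other and below every control. Mean CPM was 198 ± 7.38 against 169.6 ± 1.18 (SD, n = 3 each), and the log2 fold change was −0.22 with SE 0.0415 and a 95% interval of −0.31 to −0.13 (adjusted p 0.00702 with edgeR). The exact permutation p on CPM was 0.1, and over the alternatives the adjusted p was 0.00226 to 0.0484.

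The ligand genes of neogenin were not called. Ntn1, the secreted netrin-1, was at 40.4, 38.0 and 50.3 CPM in controls and 54.9, 47.6 and 50.4 CPM in the other group. Control 3 lay among the second group, and the test did not pass (log2 0.24, 95% interval 0.04 to 0.45, adjusted p 0.117). It passed without control 3 (log2 0.38, adjusted p 0.00618) and with the replicate block (0.0465), and without control 2 the value was 0.17 (adjusted p 0.247).

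Rgma, a membrane-anchored ligand of neogenin, was at 65.6, 62.1 and 64.2 CPM in controls and 75.1, 71.6 and 67.2 CPM in the libraries labelled knockout. The groups did not overlap, and the test did not pass (log2 0.16, 95% interval 0.04 to 0.27, adjusted p 0.0726). The exons of Rgma overlap A730056A06Rik on the opposite strand. Its paralog Rgmb was at 32.7, 30.1 and 34.3 CPM and then 28.0, 31.6 and 31.4 CPM, with overlap (log2 −0.10, adjusted p 0.404).

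Set against neogenin within each library, the reads of Rgma and Ntn1 were higher relative to the receptor in the libraries labelled knockout. The ratio of Rgma to Neo1 reads was 0.336, 0.323 and 0.312 in controls and 0.441, 0.421 and 0.399 in the libraries labelled knockout. For Ntn1 to Neo1 it was 0.207, 0.198 and 0.244 and then 0.322, 0.28 and 0.3. Neither ratio overlapped between the groups, while that of Rgmb to Neo1 overlapped (0.157 to 0.167 and 0.164 to 0.187). For Rgma this had to be so, because Rgma was higher and Neo1 lower in every library labelled knockout than in every control. Each ratio also contains the fall of Neo1 already given, and neither Rgma nor Ntn1 was called. These ratios were chosen after the values were seen and are not per length, so they compare libraries and not genes.

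Ntng2 encodes a netrin-G, which is anchored to the membrane and binds other partners than neogenin. It had 30, 18 and 23 counts in controls and 10, 9 and 9 counts in the libraries labelled knockout, or 1.69, 1.22 and 1.17 CPM against 0.62, 0.62 and 0.60 CPM. The log2 fold change of −1.14 (SE 0.276, adjusted p 0.0226) was the lowest among guidance genes. DESeq2 did not call it (adjusted p 0.106), nor did edgeR without control 1 or knockout 1, 2 or 3 (0.0598 to 0.092), and an exon overlap with 6530402F18Rik on the same strand makes its reads uncertain. Ntn4, a netrin of basement membranes, was at 6.09 to 8.78 CPM and 6.36 to 7.17 CPM (adjusted p 0.448), and Ntn3 was at 1.68 to 1.86 CPM and 1.31 to 2.0 CPM (adjusted p 0.862).

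Per length, the order of the genes differed from their order by reads. On the authors' deposited FPKM, which are scaled to gene length and rounded to whole numbers, Neo1 was highest, at 26 to 28 in controls and 22 to 23 in the other group. Slit2 (19 to 27 and 14 to 19), Slit3 (17 to 21 and 15 to 18) and Rgma (16 to 17 and 18 to 20) followed and overlapped each other. Efna5, Epha2, Ephb4, Rgmb, Ntn1, Srgap2, Efnb2, Ephb3, Srgap3, Epha3 and Efnb1 lay between 3 and 10, with ranges that mostly overlap between neighbours. Robo1 was at 1 to 2, the remaining genes were at 2 or less, and Epha7, Ntng2, Robo2, Efnb3 and Ntn3 were listed at 0 in every library. The ligands Slit2 and Slit3 thus stood well above Robo1 and Robo2 on this scale.

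The abundant guidance genes also shared an order among the libraries of a group. Of 16 guidance genes that averaged at least 10 CPM, 13 were highest in control 3 among the controls (81.2%), while 34.4% of all 9523 genes at that level were. In the other group 12 of the 16 were highest in knockout 1 (75.0%, against 31.9% of all genes) and 11 were lowest in knockout 2 (68.8%, against 33.2%), and 12 were lowest in control 2 (75.0%, against 34.4%). Genes that vary together are not independent, so these shares are a description. The sum of the 32 genes was 1131, 1080 and 1311 CPM in controls 1 to 3 and 1104, 986 and 1021 CPM in the libraries labelled knockout 1 to 3.

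Markers of the cell states in the dish followed this order in part. The 8 adipocyte markers summed to 9191, 9210 and 7418 CPM in controls and 9143, 11027 and 10454 CPM in the libraries labelled knockout, lowest within each group in the library where most guidance genes were highest. The 8 fibroblast and preadipocyte markers with a row summed to 8965, 8136 and 9328 CPM and then 8099, 7988 and 8386 CPM, and followed the guidance genes among the controls, where control 3 was highest and control 2 lowest. In the other group knockout 2 was lowest, but knockout 3 and not knockout 1 was highest. Most of this sum was Col1a1 and Col3a1, as most of the adipocyte sum was Fabp4 and Cd36. Within that group the collagens, Dlk1 and Cd34 were highest in knockout 3. Pdgfra (198, 167 and 186 CPM), Pdgfrb (534, 509 and 523 CPM), Thy1 and Ly6a were highest in knockout 1. Between the groups, 3 of 8 adipocyte markers rose (Lep, Lipe and Cd36) and 5 of 6 beige and brown markers rose (Ucp1, Cidea, Cox8b, Cox7a1 and Tbx1; median log2 fold change of the list 0.45). In the fibroblast list Dlk1 rose, Pdgfra and Thy1 fell, and 5 were not called. Of the 6 mural and smooth muscle markers 3 rose, as given above. The part of these markers in the guidance results was not tested. In bulk RNA, fewer cells of a type and less RNA per cell cannot be told apart. Epha3, Neo1 and Efnb1 kept their edgeR calls without control 3 (adjusted p 0.0011, 0.0156 and 0.0138). That run bears on the weight of control 3 alone and not on the marker differences between the groups.

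**Figure D4:**
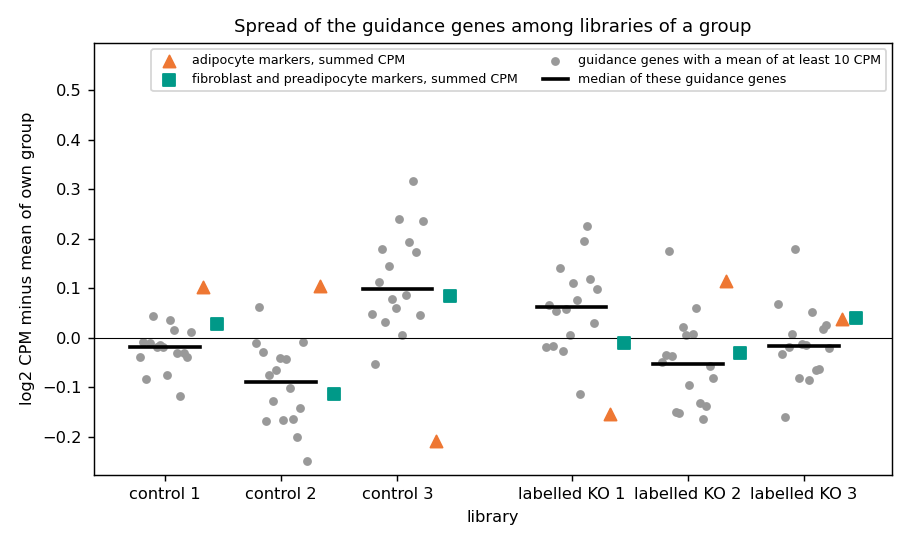
Log2 CPM minus the mean of the library's own group (y axis) in each library (x axis) for the 16 guidance genes that averaged at least 10 CPM (grey points; black bar, their median) and for the summed adipocyte and fibroblast markers. Most guidance genes lie above 0 in control 3 and knockout 1, where the adipocyte sum is below 0.

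Few of the genes that act beside or below these receptors were called. Of a list of 66 partners written from textbook roles, with earlier results of these data known, 58 had a row and 57 were tested. Of these 1 rose (1.75%, against 6.91% of all tested genes) and 4 fell (7.02%, against 5.44%). In either direction that is 8.77%, against 12.3% of all tested genes. The groups did not overlap, with lower values in the libraries labelled knockout, for 35.1% of the partners (15.8% of all tested genes) and with higher values for 10.5% (16.0%). The clearest change was that of Rgs3, which links ephrin-B tails to G protein signalling: 27.1, 25.9 and 26.3 CPM in controls and 16.9, 17.2 and 16.1 CPM in the other group. Its log2 fold change was −0.66 (SE 0.0657, adjusted p 0.00019), and the call held under every alternative run.

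The other partner calls were smaller, and each was lost when some single library was left out. Rasa1, a Ras GTPase-activating protein gene that EphB receptors recruit, went from 113, 115 and 127 CPM to 101, 102 and 100.1 CPM (log2 −0.23, adjusted p 0.0139; 0.0706 without knockout 3). Sipa1l1, which encodes a Rap regulator in EphA signalling, fell by 0.18 on the log2 scale (adjusted p 0.0189), with calls lost without control 1 or knockout 1, 2 or 3 (0.0518 to 0.0896). Pak3, a kinase gene of the Rac and Cdc42 pathway, fell by 0.25 (adjusted p 0.0484), which DESeq2 did not call (0.109), nor edgeR without control 1, control 3, knockout 2 or knockout 3 (0.0939 to 0.163). Sos2, which encodes a Ras and Rac exchange factor, rose by 0.28 (adjusted p 0.0118; 0.0675 without knockout 3). Of the netrin receptors and co-receptors on the list, Unc5b was the netrin receptor gene with the most reads, at 190.4, 170.03 and 208 CPM in controls and 165, 175 and 180.1 CPM in the other group (adjusted p 0.229); it was named after its values were seen.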

How the data were processed

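Messenger RNA was sequenced from 6 libraries in 2 groups of 3, taken from the sample titles. Read counts per gene are the deposited values, whole numbers under Ensembl IDs with gene names, per the file headers. The FPKM that the authors deposited beside them are rounded to whole numbers; the authors' rounding makes them a score, used here to order levels between genes. Novoalign 2.8, Picard, DESeq2 and build mm9 are named per the submitters' processing notes, without roles; the counter, its annotation and its strand setting are not given in the sources used, though the kit was stranded per the labels' protocols. Each of the 13962 rows reaches at least 10 counts in some library.

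Counts were fitted whole with edgeR 4.0.16 (R 4.3.3): the package's expression filter, TMM scaling, the quasi-likelihood test with the group alone, and Benjamini-Hochberg adjustment over 13192 genes. The SE is the log2 fold change over the square root of F. CPM use TMM-scaled library sizes. Alternatives were DESeq2 1.42.0, limma-voom (limma 3.58.1), DESeq2 size factors, library size alone, no filter, a replicate block and each library left out. The scripts were tested on simulated counts. Guidance genes and lists were chosen with earlier results of these data known. The text names every guidance gene, giving each library for those that changed or averaged at least 10 CPM, and up to 8 changed partners per direction. Exon overlaps come from GENCODE M21 on another build than mm9.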

Additional observations from a re-analysis of the deposited data

How the results depend on the processing

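Among the tested guidance genes, 345 of 372 comparisons of a gene's value under an alternative kept direction and side of the threshold; 12 lost a call, 9 gained one and 6 changed sign, all 6 in genes that were not called. Guidance genes that fell numbered 2 with DESeq2, and 2 to 6 with 1 library left out; those that rose numbered 2 with the replicate block and 1 to 2 with 1 library left out. Partners that rose numbered 2 with DESeq2 size factors, without the filter, with DESeq2 and with the replicate block; with 1 library left out 0 to 3 rose and 1 to 6 fell. Over all genes, leaving out 1 library gave 332 to 1025 that rose and 289 to 870 that fell. Sign changes came with 1 library left out, where the log2 values ranged from −0.004 to 0.161 for Efna2, −0.163 to 0.012 for Epha2, −0.147 to 0.009 for Ephb2, −0.028 to 0.146 for Ephb3 and −0.22 to 0.067 for Ntn3; the cause was not tested. The median log2 fold change of guidance genes was −0.151 to −0.066. Same-numbered libraries of the groups did not consistently deviate together (correlation over genes −0.04, 0.191 and 0.031 for numbers 1 to 3). Control 2 and knockout 2 correlated best with each other, but control 3 correlated best with knockout 1 (0.227). The numbers were not taken to pair the samples, though a pairing is not excluded. With the replicate block, 1032 genes rose and 777 fell, against 911 and 718. Guidance genes that averaged under 5 CPM rest on under 100 counts per library, and changes of the size of that of Neo1 are not detectable there.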

Other observations

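The guidance genes are long. In GENCODE M21 their median span from first to last exon was 106.5 kb (31 genes with a span), against 23.0 kb over tested genes, and 16 spanned at least 100 kb, of which 15 were tested (all but Robo2). Of the 1661 tested genes that spanned at least 100 kb, 12.2% fell, against 5.44% of all tested genes; 3 of the 15 long tested guidance genes (Epha3, Epha7 and Neo1) fell. These spans come from another genome build than the counts, and gene length was not part of any fit.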
